A study of Mus musculus with 4 samples.

Results

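Transcripts of 9 proteins of the thick filament, the M-band and the Z-disc were followed through 4 mouse cell populations that lie between mesoderm and cardiomyocytes. The genes were taken by their RefSeq identifiers, from a list drawn up with earlier results of these arrays known, and these were Mybpc3 (NM_008653), Myom1 (NM_010867), Myom2 (NM_008664), Actn2 (NM_033268), Tcap (NM_011540), Myoz2 (NM_021503), Csrp3 (NM_013808), Smpx (NM_025357) and Des (NM_010043). Each identifier was carried by 1 probe, so that 9 of 39428 probes were taken, and all 9 were well above background on at least 1 array. The Des probe was spotted 10 times on every array, whereas the others had 1 spot each.

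The populations were sorted from differentiating mouse embryonic stem cells kept without leukemia inhibitory factor, and each was measured on 1 array of Agilent's 1-colour type. Flk1+ MPCs, the mesodermal precursor cells, were taken at day 4.5. PCBs, which the study defines as PDGFRα+Flk1- cardioblasts, were taken at day 5.5 after induction with CsAYTE, and sfPCBs formed spontaneously by day 5.5 without it. CsAYTE is a mixture of an ALK5 inhibitor (EW7197), an antioxidant (Trolox), a ROCK inhibitor (Y27632) and Cyclosporin A. DMSO was the vehicle of the controls. M+CMs were αMHC+ cardiomyocytes at day 10.5. In the study these came from PCBs, but the label of the array gives no CsAYTE treatment. αMHC is the product of Myh6, and the study's reporter line expresses GFP from that promoter, so the gate for M+CMs already selected cells with an active sarcomere gene. The study grew sorted Flk1+ MPCs on OP9 stromal feeder cells, and markers of stroma are given with the results.

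The sarcomere is the contractile unit of striated muscle. Myosin thick filaments are crosslinked at the M-band in its middle, actin thin filaments are anchored at the Z-disc at its ends, and titin spans from the Z-disc to the M-band. Z-discs carry α-actinin crosslinks and small adaptor and signalling proteins, and desmin filaments tie neighbouring Z-discs together. In the embryonic heart these proteins are made as the first beating cells assemble their myofibrils, and several of them are altered in inherited cardiomyopathies.

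Signals were the scanner software's background-subtracted intensities, scaled so that every array had the same 75th percentile, and a probe was detected when the software called it well above background. The software's own error of a signal is given on the log2 scale. It covers the spot and its local background and not differences between cultures, and as each population had 1 array, populations could not be tested against each other. Between 72.9% and 76.0% of the probes were detected on an array, the lowest detected scaled signal was between 15.1 and 15.9, and the negative control spots had medians between 3.47 and 3.70. All 4 arrays lay on 1 slide. The labels were checked with marker genes. From Flk1+ MPCs to M+CMs, all 10 cardiomyocyte markers differed upward by at least 30-fold (1.96% of all transcripts). All 6 mesoderm markers differed downward by at least 2-fold (21.9% of all transcripts). Pdgfra, the gene of the PCB surface marker, had a signal of 7237 in Flk1+ MPCs, 3647 in sfPCBs and 9136 in PCBs, against 918 in M+CMs. Kdr, the gene of Flk1, had 24858, 5511, 2363 and 3993 in the same order and was detected in all 4. In a sorted bulk sample, fewer cells of a type and less RNA per cell cannot be told apart.

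The promoters of the genes were looked up by symbol in RefSeq (build GRCm38.p6), which held 8 windows of 250 bases before and 50 bases after an annotated start, for 7 of the 9 genes. Tcap and Myom2 had none. The windows were searched on both strands for the MEF2 consensus, the site of the MEF2 factors of muscle genes, for the CArG box, the site of serum response factor, for the TATA box as TATAAA, for the core of the TEAD site as CATTCC, for a GATA site as AGATAA, for the E-box as CANNTG and for its special case CACTTG. The MEF2 consensus was in the windows of Mybpc3 and Myoz2 (2 of 8 windows, against 3.19% of 32851 windows of all genes), starting 90 bases before the start of Mybpc3 and 33 bases before that of Myoz2. The CArG box was in that of Myom1 (1 of 8, against 1.63%), starting 99 bases before the start. The E-box was in 7 of the 8 windows, but also in 72.3% of all windows. The letters TATAAA were in none of the 8, against 13.6% of all windows, and the TEAD core in none, against 14.7%. Other forms of the TATA box were not searched for. The GATA site was in the windows of Myom1 and Smpx (11.2% of all), and the special case of the E-box in that of Mybpc3 (13.6% of all). A match of letters is a description and not evidence of binding.

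The 3 windows with a match to either muscle motif are shown 5′ to 3′ on the gene's strand, with the MEF2 consensus (Mybpc3, Myoz2) or the CArG box (Myom1) in capitals. They belong to genes with different timing in the arrays, since Mybpc3 and Myom1 were already high in PCBs and Myoz2 was detected in M+CMs only. Mybpc3 lies on the plus strand at chr2:91117894-91118193, Myom1 on the plus strand at chr17:71019307-71019606 and Myoz2 on the minus strand at chr3:123034938-123035237.
Mybpc3: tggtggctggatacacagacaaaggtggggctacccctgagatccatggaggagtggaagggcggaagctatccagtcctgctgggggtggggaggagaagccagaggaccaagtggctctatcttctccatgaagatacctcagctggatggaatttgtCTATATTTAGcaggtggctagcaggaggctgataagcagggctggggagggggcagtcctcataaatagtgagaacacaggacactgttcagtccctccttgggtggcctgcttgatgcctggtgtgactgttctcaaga
Myom1: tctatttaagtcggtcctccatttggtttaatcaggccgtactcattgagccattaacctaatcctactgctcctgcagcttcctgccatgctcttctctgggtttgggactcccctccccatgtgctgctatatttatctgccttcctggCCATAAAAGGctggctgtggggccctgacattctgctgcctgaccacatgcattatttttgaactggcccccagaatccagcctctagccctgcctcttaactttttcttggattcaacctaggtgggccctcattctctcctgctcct
Myoz2: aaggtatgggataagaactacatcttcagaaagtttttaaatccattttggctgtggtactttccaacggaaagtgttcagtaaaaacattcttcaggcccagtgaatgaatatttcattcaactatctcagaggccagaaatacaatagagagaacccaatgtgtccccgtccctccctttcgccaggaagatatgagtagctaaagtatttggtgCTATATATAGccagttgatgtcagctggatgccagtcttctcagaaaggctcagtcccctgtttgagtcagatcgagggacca

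All 9 genes had their highest signal in M+CMs, an order found for 38.4% of the 32443 transcripts detected on any array. For 7 of the 9, the signals of PCBs and M+CMs both lay above those of Flk1+ MPCs and sfPCBs (17.2% of all). The exceptions were Myom2, with its lowest signal in PCBs, and Myoz2, which was below detection in all 3 populations before M+CMs. The genes are described below from the thick filament outward to the Z-disc and the desmin network.

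**Figure D1:**
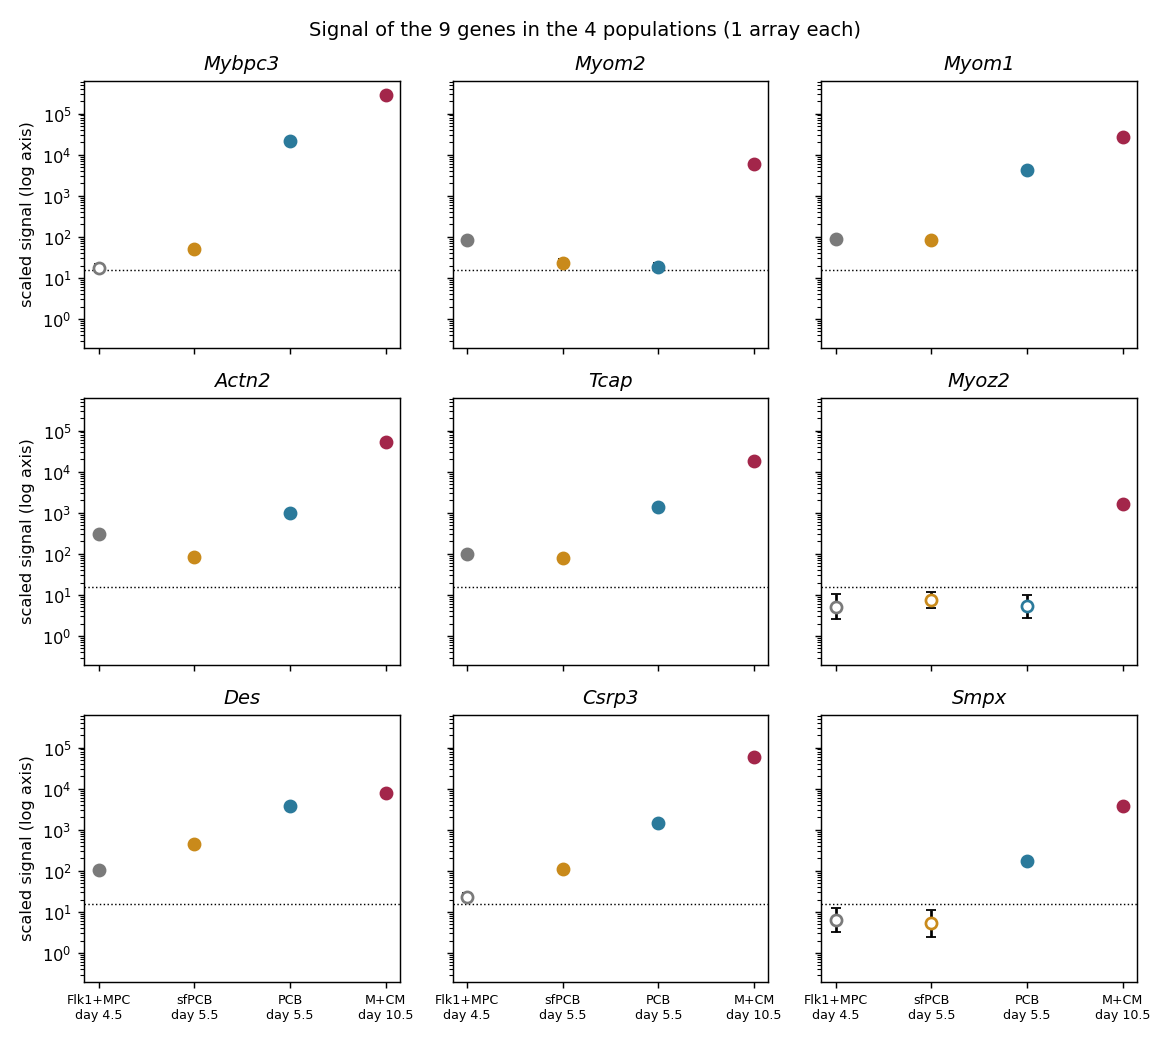
Scaled signal (log axis) of each of the 9 genes in Flk1+ MPCs, sfPCBs, PCBs and M+CMs, with 1 array each. Filled points were well above background and open points were not, bars are the scanner software's error, which is smaller than the point for bright signals, and the dotted line is the highest of the 4 lowest detected signals (15.9). M+CMs had the highest signal for all 9 genes, and PCBs the second highest for all except Myom2 and Myoz2.

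Mybpc3 encodes cardiac myosin-binding protein C, which sits on the thick filament and regulates the interaction of myosin with actin. Its signal was 17.6 in Flk1+ MPCs, where it was not well above background, 51.3 in sfPCBs and 21227.5 in PCBs, against 283146 in M+CMs. PCBs and M+CMs were far above both other populations. The sfPCB signal was low, and its log2 ratio to the undetected Flk1+ MPC signal was 1.55. With normexp this ratio was 0.57 and with an offset of 50 added to the signals 0.58, both under 2-fold. Normexp stands here for a background correction with its own offset of 50, followed by quantile normalization. PCBs exceeded sfPCBs 414-fold (log2 ratio 8.69, software error 0.23), the 7th highest of 30117 ratios in that comparison. M+CMs exceeded PCBs 13.3-fold (log2 ratio 3.74, error 0.20) and the undetected Flk1+ MPC signal 16120-fold. That Flk1+ MPC signal lay above the lowest signal detected on its array (15.9), so the ratio is no lower bound. With normexp its log2 value was 11.71, in place of 13.98. Where an undetected signal lay below the lowest detected signal, the ratio to the latter is given below as a lower bound.

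The M-band genes Myom1 and Myom2 encode the related proteins myomesin 1 and myomesin 2, which crosslink myosin filaments, and they differed in time. Myom1 had a signal of 86.8 in Flk1+ MPCs, 83.2 in sfPCBs and 4220 in PCBs, against 26566 in M+CMs. The first pair differed by less than 2 software errors. PCBs were 50.7-fold above sfPCBs (log2 ratio 5.66, error 0.21), and M+CMs were 6.30-fold above PCBs (log2 ratio 2.65, error 0.20).

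Myom2 had a signal of 85.4 in Flk1+ MPCs, 23.6 in sfPCBs and 19.0 in PCBs, against 6080 in M+CMs. The lowest values were those of both day 5.5 populations, which differed by less than 2 software errors and were just above the lowest detected signals of their arrays, 15.1 in sfPCBs and 15.5 in PCBs. PCBs were 4.50-fold below Flk1+ MPCs (log2 ratio -2.17, error 0.35), but this log2 ratio was -0.87 with normexp and -0.97 with the offset of 50, under 2-fold. M+CMs were 320-fold above PCBs (log2 ratio 8.32, error 0.34), the 8th highest of 31131 ratios. With normexp this log2 ratio was 6.10 and with the offset 6.47. Between PCBs and M+CMs, the log2 ratio was thus 8.32 for Myom2 and 2.65 for Myom1, with both probes above background in both populations.

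Actn2 encodes the α-actinin that crosslinks actin filaments in the Z-disc of cardiac muscle. Its signal was 305 in Flk1+ MPCs, 86.2 in sfPCBs and 976 in PCBs, against 53981 in M+CMs. Flk1+ MPCs lay between the day 5.5 populations, with sfPCBs 3.54-fold lower (log2 ratio -1.82, error 0.22) and PCBs 3.20-fold higher (log2 ratio 1.68, error 0.21). The largest step was that from PCBs to M+CMs, 55.3-fold (log2 ratio 5.79, error 0.20).

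Tcap encodes telethonin, which caps the titin ends in the Z-disc. Its signal was 100 in Flk1+ MPCs, 80.1 in sfPCBs and 1369 in PCBs, against 17993 in M+CMs. The Flk1+ MPC and sfPCB values differed by less than 2 software errors. The increases from sfPCBs to PCBs (log2 ratio 4.10, error 0.21) and from PCBs to M+CMs (log2 ratio 3.72, error 0.20) were of similar size.

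Csrp3 encodes muscle LIM protein, an adaptor at the Z-disc. Its signal was 23.1 in Flk1+ MPCs, not well above background, 108 in sfPCBs and 1442 in PCBs, against 58449 in M+CMs. The 4 values were all apart by more than 2 software errors. PCBs were 13.3-fold above sfPCBs (log2 ratio 3.74, error 0.21) and M+CMs 40.5-fold above PCBs (log2 ratio 5.34, error 0.20). M+CMs were 2534-fold above the undetected Flk1+ MPC signal, which is no lower bound. With normexp the log2 value of that ratio was 9.12, in place of 11.31.

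Smpx encodes a small muscle protein that responds to stretch. Its signal was 6.42 in Flk1+ MPCs and 5.31 in sfPCBs, neither well above background, 176 in PCBs and 3864 in M+CMs. PCBs were the earliest of the populations in which it was detected, at least 11.6-fold above sfPCBs and at least 11.0-fold above Flk1+ MPCs. M+CMs were 22.0-fold above PCBs (log2 ratio 4.46, error 0.21).

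Myoz2 encodes calsarcin-1 (myozenin 2), a Z-disc protein that binds α-actinin and the phosphatase calcineurin. Its signal was 5.19 in Flk1+ MPCs, 7.57 in sfPCBs and 5.30 in PCBs, all not well above background, and 1639 in M+CMs. The 3 early values had no order. In PCBs the unscaled median of the spot was 63 with a local background of 32, and in M+CMs it was 1524.5 with a background of 35.5. M+CMs were at least 105-fold above PCBs, and the day 10.5 population was the only one of the 4 in which it was detected.

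Des encodes desmin, the muscle intermediate filament that links Z-discs and is also made in smooth muscle. Its signal was 104 in Flk1+ MPCs, 453 in sfPCBs and 3702 in PCBs, against 7679 in M+CMs. The populations were ordered in the same way by every repeated spot. The 9 spots used in Flk1+ MPCs reached from 94.6 to 117 (median 105), the 10 in sfPCBs from 427 to 497 (median 446), the 10 in PCBs from 3538 to 3953 (median 3699) and the 10 in M+CMs from 7167 to 8114 (median 7785). These ranges did not overlap, and the SD between spots was between 0.045 and 0.089 on the log2 scale, below the software's error of 0.14 to 0.15. Repeated spots on 1 array do not measure differences between cultures. M+CMs were 2.07-fold above PCBs (log2 ratio 1.05, error 0.20), the smallest of the 9 differences between these populations. In the signals without scaling of the arrays, this log2 ratio was 0.84. The summed signal of 5 smooth muscle markers was 22748 in Flk1+ MPCs, 186723 in sfPCBs and 267894 in PCBs, against 423841 in M+CMs. Most of the sum was Acta2, with 312110 in M+CMs, and Acta2 was the only one of the 5 with the order of Des. Tagln was lower in PCBs (32214) than in sfPCBs (58693), and Myocd was lower in M+CMs (13450) than in PCBs (16719). The part of smooth muscle cells in the Des signal was not tested.

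**Figure D2:**
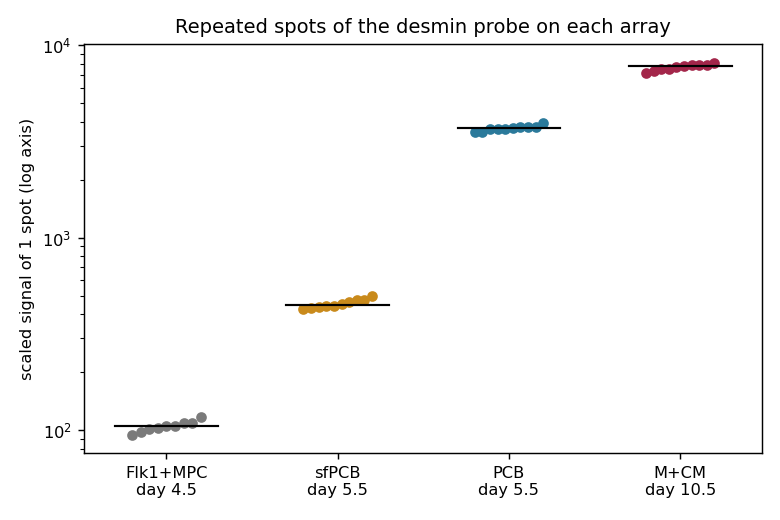
Scaled signal (log axis) of each spot of the Des probe on the 4 arrays, sorted by value within an array (9 spots in Flk1+ MPCs, 10 in each of the others), with the median as a line. The spots of the 4 populations did not overlap, from a highest value of 117 in Flk1+ MPCs to a lowest of 7167 in M+CMs.

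How far PCBs had come toward the M+CM signal varied widely among the genes. PCBs had 48.2% of the M+CM signal of Des, 15.9% of that of Myom1, 7.61% of that of Tcap and 7.5% of that of Mybpc3. For Tcap and Mybpc3 these shares were indistinguishable within the software's error. Smpx followed with 4.55%, Csrp3 with 2.47% and Actn2 with 1.81%. Myom2 had 0.312%, and Myoz2, not detected in PCBs, had at most 0.949%. When the log2 distance from the Flk1+ MPC signal to the M+CM signal was taken as 1, PCBs stood at 0.83 for Des, 0.73 for Mybpc3, 0.68 for Myom1, between 0.50 and 0.53 for Tcap, Smpx and Csrp3, at 0.23 for Actn2 and at -0.35 for Myom2, below its Flk1+ MPC signal. The scale places Mybpc3, Csrp3 and Smpx against signals below detection in Flk1+ MPCs and is only approximate for them. The order did not follow the structures, since the M-band pair Myom1 and Myom2 stood far apart, as did the Z-disc genes Tcap and Myoz2.

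**Figure D3:**
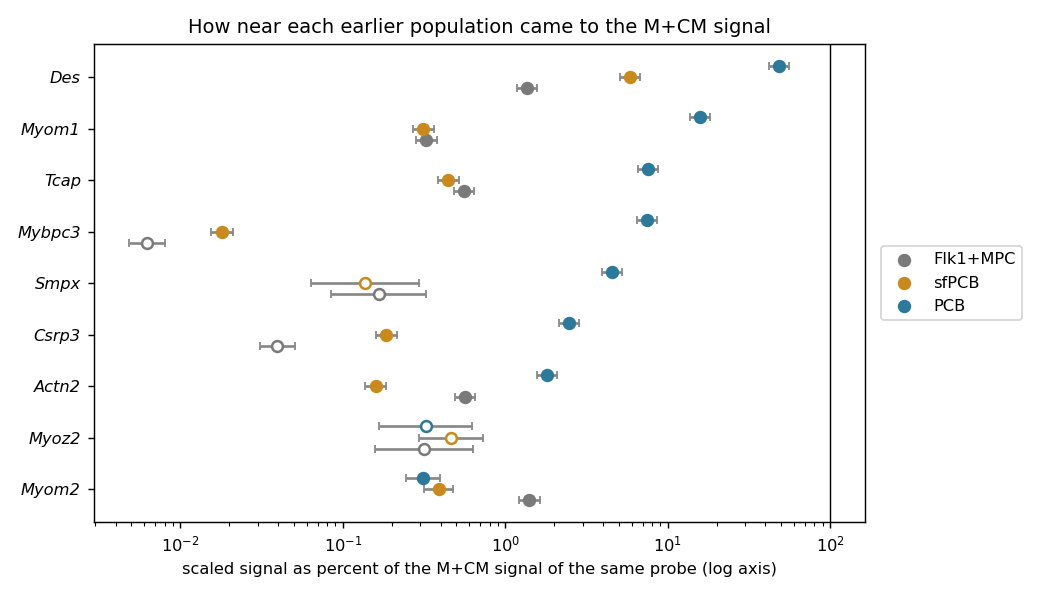
Scaled signal of Flk1+ MPCs, sfPCBs and PCBs as percent of the M+CM signal of the same probe (log axis), for each of the 9 genes, ordered by the value of PCBs. Bars are the software's error of the ratio, open points were not well above background, and the vertical line marks the M+CM signal. PCBs reached 48.2% for Des and 15.9% for Myom1, but 0.312% for Myom2.

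CsAYTE-induced PCBs and spontaneously formed sfPCBs were compared to ask which of these genes differed at the same day with and without CsAYTE. Of the 8 genes detected in either population, 7 were at least 2-fold higher in PCBs (6.13% of 30117 transcripts were), and 0 were at least 2-fold lower (7.36% of transcripts). At least 30-fold higher, the limit the study used, were Mybpc3, Myom1 and Smpx (3 of 8, against 0.272% of transcripts). The ratio of Smpx was 33.2-fold against an undetected signal, for which 11.6-fold was the lower bound. The count was 2 in place of 3 under each alternative tried except the authors' value table. Actn2, Tcap, Des and Csrp3 were between 8.17-fold and 17.1-fold higher. Myom2 was the member without a difference beyond 2 software errors (log2 ratio -0.32, error 0.41). The median log2 ratio of the 8 genes was 3.92, beside 0.03 over all transcripts compared, and their range was from -0.32 to 8.69. The genes were named with earlier results of these arrays known, so these counts describe them and support no wider statement.

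Markers of other cells differed between the same arrays. Of all transcripts, 7.36% were at least 2-fold lower in PCBs than in sfPCBs and 0.262% at least 30-fold lower. Of the 6 mesoderm markers, 5 were at least 2-fold lower in PCBs, 3 were at least 30-fold lower, and Pdgfra was higher. Eomes had a signal of 2307 in sfPCBs and 13.5 in PCBs, and Etv2 had 6646 and 97.9. All 9 markers of OP9 stroma and fibroblasts were detected in sfPCBs, 6 of the 9 were at least 2-fold lower in PCBs, and 3 were at least 30-fold lower. Their summed signal was 4156 in Flk1+ MPCs, 286230 in sfPCBs and 143883 in PCBs, against 23282 in M+CMs. In both day 5.5 populations most of this sum was Col1a2, with 175060 in sfPCBs and 109300 in PCBs. Lum, a proteoglycan gene of fibroblasts, had a signal of 8782 in sfPCBs and 30.2 in PCBs. Col1a2 and Vcam1 were under 2-fold lower in PCBs, and Thy1 was higher there (147) than in sfPCBs (102). The 4 endothelial markers summed to 2876 in sfPCBs and 233 in PCBs, with 3 of the 3 that were compared at least 2-fold lower in PCBs. The summed signal of 5 blood markers was 4333 in sfPCBs and 2791 in PCBs, with 3 of the 5 at least 2-fold lower in PCBs. Most of this sum was Hbb-bh1, with 2781 in sfPCBs and 2525 in PCBs. The part of these cells in the lower sarcomere signals of sfPCBs was not tested. Of the skeletal muscle regulators, Myog and Myf5 were not well above background in any of the populations and Myod1 was detected in Flk1+ MPCs only, at 29.3. Myf6 was detected in all except Flk1+ MPCs, with 20.8 in sfPCBs, 22.8 in PCBs and 25.5 at day 10.5. Pax7 was detected in all except PCBs, with 51.0 in Flk1+ MPCs, 27.3 in sfPCBs and 24.3 at day 10.5. The 10 skeletal markers included Acta1, which embryonic heart also expresses and which had a signal of 26918 in M+CMs. Their summed signal was 1276, 6512, 10323 and 27076 in Flk1+ MPCs, sfPCBs, PCBs and M+CMs. Acta1 had 570, 5784, 9940 and 26918 in that order, most of the sum in all except Flk1+ MPCs. Tnnt3 had 549, 615, 301 and 62.1. Myh3 had 34.1, 29.9 and 20.2 and was not detected in M+CMs, and Myh1 and Myh4 were not detected in any.

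Against Flk1+ MPCs, 7 of 8 genes were at least 2-fold higher in PCBs (12.8% of 30811 transcripts were) and 1, Myom2, was at least 2-fold lower (12.1%). Mybpc3, Myom1, Des and Csrp3 were at least 30-fold higher (4 of 8, against 1.36%), and 0 were at least 30-fold lower (0.467%). For Mybpc3 and Csrp3 the Flk1+ MPC signal was below detection, and the ratios to it, which are no lower bounds, were 1208-fold and 62.5-fold. With normexp Mybpc3 alone passed 30-fold, and the log2 ratios of Myom1, Des and Csrp3 were 4.71, 4.28 and 3.77. The median log2 ratio was 4.96, beside -0.20 over all transcripts. In sfPCBs, compared with the same Flk1+ MPC array, 3 of 7 genes were at least 2-fold higher (13.1% of 30689 transcripts were), namely Mybpc3, Des and Csrp3, and 2 of 7, Myom2 and Actn2, were at least 2-fold lower (12.6%). None passed 30-fold, against 1.3% of transcripts higher and 0.166% lower. Csrp3 was 4.69-fold higher, against an undetected Flk1+ MPC signal, and Des 4.34-fold higher. With normexp Csrp3 (log2 ratio 0.92) and Mybpc3 were under 2-fold higher and Myom2 (-0.85) under 2-fold lower. The median log2 ratio was -0.06, beside -0.22 over all transcripts. Without scaling of the arrays these were 0.28 and 0.11, so both signs depended on the scaling. Both comparisons share the Flk1+ MPC array and its errors.

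M+CMs were compared with PCBs to follow the genes into αMHC+ cardiomyocytes. The M+CM signal was higher by at least 2-fold for all 9 (as for 20.5% of 31131 transcripts), and Myom2, Actn2, Csrp3 and Myoz2 were at least 30-fold higher (4 of 9, against 0.646%). None was lower by 2-fold (15.4% of transcripts) or by 30-fold (0.819%). With normexp the log2 ratio of Myoz2 was 4.52, under 30-fold, against both PCBs and Flk1+ MPCs. The median log2 ratio was 4.46, beside 0.15 over all transcripts, with a range from 1.05 for Des to 8.32 for Myom2. Without scaling of the arrays, the median over all transcripts was -0.06 and that of the 9 genes was 4.25. These arrays also differ in day and sort, which cannot be told apart from the population. Against Flk1+ MPCs, the M+CM signal was at least 30-fold higher for all 9 genes (1.96% of 31539 transcripts), where 0.97% of transcripts were at least 30-fold lower. For 5 of them, Myom1, Myom2, Actn2, Tcap and Des, both arrays were above background, with ratios between 71.2-fold for Myom2 and 306-fold for Myom1. For the other 4 the Flk1+ MPC signal was undetected. The lower bounds were 103-fold for Myoz2 and 242-fold for Smpx. The ratios to the undetected signal, which are no bounds, were 2534-fold for Csrp3 and 16120-fold for Mybpc3.

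**Figure D4:**
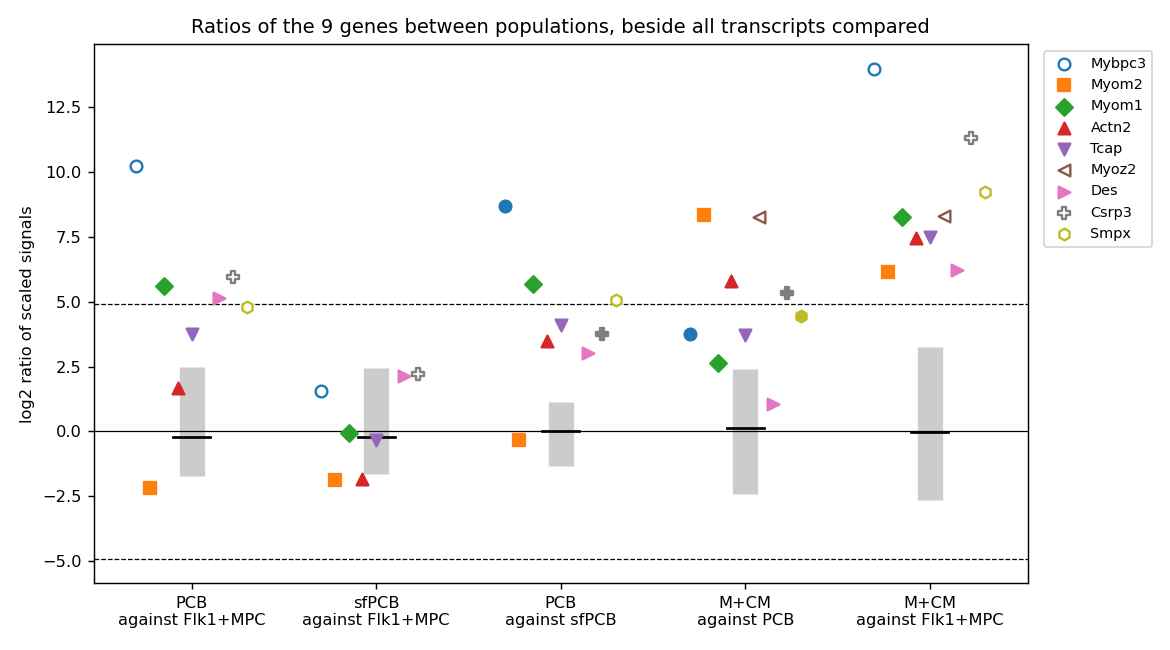
Log2 ratio of scaled signals of the 9 genes in 5 comparisons, with the range from the 5th to the 95th percentile of all transcripts compared as a grey bar and their median as a black line. Open symbols have an undetected signal in the dimmer array, ratios with neither array above background are left out, and dashed lines mark 30-fold. In PCBs against sfPCBs the genes lay from -0.32 (Myom2) to 8.69 (Mybpc3), while in sfPCBs against Flk1+ MPCs they lay from -1.85 (Myom2) to 2.23 (Csrp3).

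Another 49 genes of the same structures or of intermediate filaments in general were listed by symbol, and probes were found for all 49. A gene with several probes was given their mean on the log2 scale. Between M+CMs and Flk1+ MPCs, 46 could be compared, of which 25 were at least 2-fold higher and 6 at least 2-fold lower (22.4% and 21.9% of all transcripts). Of these 6, 2 were the keratins Krt8 and Krt18. At least 30-fold higher were 12 of 46 (1.96% of all transcripts), and the median log2 ratio was 1.51. The 14 other thick filament and M-band genes had the highest median, 5.28 over 12 compared, against 1.03 for 28 other Z-disc genes and -0.32 for 6 other intermediate filament genes. From sfPCBs to PCBs, 10 of 13 of the thick filament and M-band genes were at least 2-fold higher, as were 8 of 28 of the Z-disc genes and 0 of 6 of the intermediate filament genes (6.13% of all transcripts). At least 2-fold lower in PCBs were 1 of 13, 4 of 28 and 3 of 6 of them (7.36% of all transcripts). The probes of Pdlim7 and Obsl1 disagreed, with at least 1 probe each 2-fold higher and 2-fold lower in M+CMs.

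Among the listed genes above background in both populations, the largest increases from Flk1+ MPCs to M+CMs were those of Ankrd1, Ldb3 and Unc45b. Ankrd1 encodes a stress-responsive ankyrin repeat protein of the sarcomere, and its signal was 66.0 in Flk1+ MPCs, 8549 in sfPCBs and 1339 in PCBs, against 54706 in M+CMs. It was higher in sfPCBs than in PCBs, the opposite of 7 of the 9 genes above. Ldb3 encodes the Z-disc protein ZASP, with signals of 49.6, 78.7, 1566 and 21367 in the same order of populations. Unc45b, a myosin chaperone, had 46.6, 717, 10375 and 19496. The largest decreases were those of the epithelial keratins Krt8 and Krt18 and of Cavin4, a caveolar protein of muscle. Krt8 had a signal of 16120 in Flk1+ MPCs, 34773 in sfPCBs and 7761 in PCBs, against 56.1 in M+CMs (log2 ratio of the last to the first -8.17). Titin lies outside the rule for naming and was added after its values were seen. Its 4 probes were below detection in Flk1+ MPCs and at least 246-fold to at least 7563-fold higher in M+CMs.

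Relatives of the 9 genes from the same families had other patterns. The α-actinins Actn1 and Actn4, found in cells of many types, had signals of 4949 and 18260 in Flk1+ MPCs and 1576 and 12666 in M+CMs. Actn3, the fast skeletal muscle form, had 390 in Flk1+ MPCs, 58.0 in sfPCBs and 112 in PCBs, against 310 in M+CMs. Its lowest value was in sfPCBs, as with Actn2. Csrp1 and Csrp2, relatives of Csrp3 known from smooth muscle and other tissues, were highest in PCBs, at 122200 and 148910, and were 55904 and 56088 in M+CMs. Myoz1, in contrast with Myoz2, was already above its sfPCB level in PCBs, with 41.1 in Flk1+ MPCs, 43.9 in sfPCBs and 378 in PCBs, against 1136 in M+CMs. Myoz3 was between 18.9 and 40.4 in all populations. Mybpc1, the slow skeletal form of myosin-binding protein C, was highest in PCBs at 268, against 51.4 in M+CMs, and Mybpc2, the fast form, was not detected in any. Myom3 did not exceed 48.2.

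**Figure D5:**
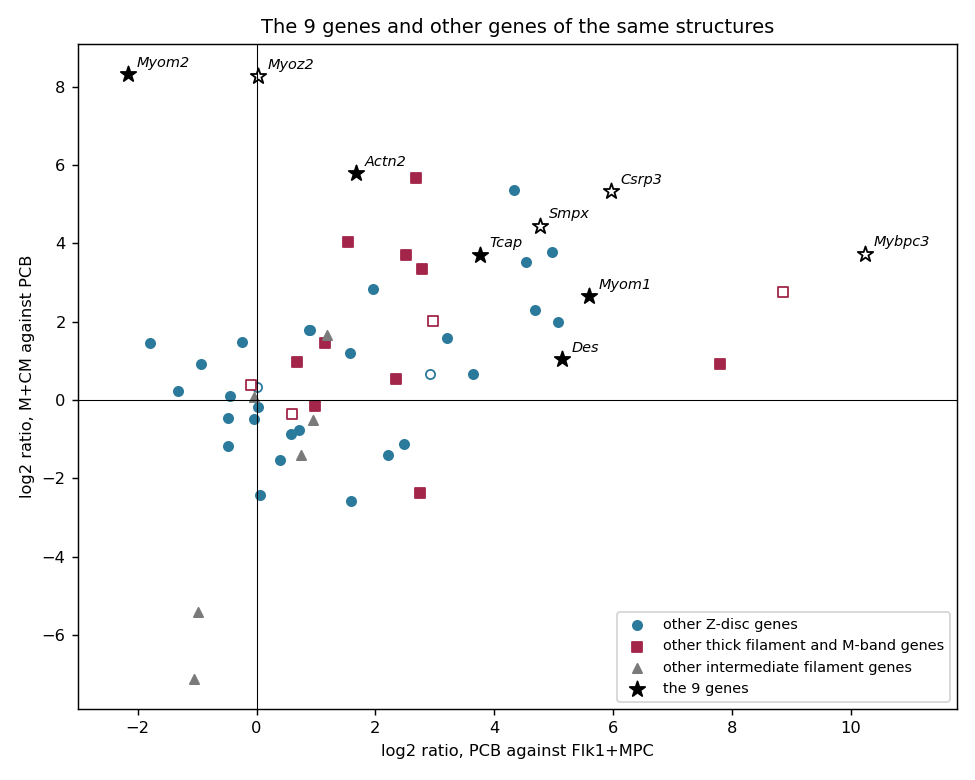
Log2 ratio of PCBs to Flk1+ MPCs (horizontal) and of M+CMs to PCBs (vertical). Stars, named, are the 9 genes, and the other symbols are the 49 other listed genes, by list. Open symbols were not above background in at least 1 of the 3 populations, and both axes share the PCB array. Myom2 and Myoz2 lie at the top left with vertical values of 8.32 and 8.27, and Krt8 is the lowest point.

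The genes most like the 9 were sought among 19861 probes with a RefSeq mRNA identifier and a symbol that were above background in PCBs and M+CMs. Likeness was the root mean square difference between log2 profiles over the 4 arrays, each centred on its own mean, and a gene with several probes was taken by its closest probe. Among the 10 closest to the median profile of the 9 genes were Fsd2 (0.19), Hspb7 (0.28), Smim5 (0.34), Lpar3 (0.42), Plppr4 (0.45), Myh8 (0.45), Ppargc1a (0.48), Hopx (0.48) and Mov10l1 (0.55). Of the 9 genes themselves, Smpx was the nearest to that profile (0.36) and Mybpc3 the farthest (2.44). Hspb7 encodes a small heat shock protein of heart and muscle, with signals of 20.3, 28.5, 388 and 7148 in Flk1+ MPCs, sfPCBs, PCBs and M+CMs. Hopx, a cardiac homeodomain gene, had 71.4, 80.5, 861 and 16839. For 6 of the 10, neither Flk1+ MPCs nor sfPCBs were above background, so the early part of the match rests on signals with no firm size.

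Single genes had different nearest neighbours. Those of Mybpc3 were Ttn and Myh6 (both 0.73), the genes of titin and of the αMHC used for the gate, and those of Actn2 were Kcng2 (0.14) and Mybphl (0.42). The nearest to Myom1 were Hrc (0.29) and Myl1 (0.41), and to Des Plcl1 (0.27) and Jph2 (0.27), the last of which encodes a junction protein of muscle membranes. Myom2 was closest to Cidea (0.43) and Rgs6 (0.46), and Myoz2 to Nmrk2 (0.38) and Hr (0.42). Tcap was closest to Cited4 (0.15) and Ppargc1a (0.19), Smpx to Plppr5 (0.26) and Ppargc1a (0.31), and Csrp3 to Txlnb (0.43) and Cox6a2 (0.50), the muscle form of a respiratory chain subunit. The probes of Ttn, Myl1, Kcng2 and Plppr5, and the Ppargc1a probe nearest to Tcap, were not above background in Flk1+ MPCs or sfPCBs, and Plcl1 and Txlnb were not in Flk1+ MPCs, so these distances rest in part on background signals. Of the members, Myoz2 was undetected in all populations except M+CMs, Smpx in Flk1+ MPCs and sfPCBs, and Mybpc3 and Csrp3 in Flk1+ MPCs. Their own profiles thus rest in part on background signals too. Probes undetected in PCBs, as that of Myoz2 was, were not among those searched. With 4 points a profile, such a likeness is a description.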

How the data were processed

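RNA of 4 sorted mouse populations was labelled with Cy3 and hybridised to 1 array each. Feature Extraction 11.5.1.1 gave the deposited intensities of the spots, with a background subtracted and an error estimated. Values were not normalized across arrays, and the design's annotation is mm9 per the file headers. The deposited series value table holds log2 values equal to log2 of the processed signals, not centred, with medians between 6.88 and 7.40.

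Control spots and spots called non-uniform, population outliers or marked by hand were left out (87 to 144 per array), and 0 spots were saturated. Signals were scaled to the mean of the 75th percentiles (2198.4), and repeated spots were averaged on the log2 scale. Detection required at least 0.5 of a probe's spots to be well above background. A transcript was compared when detected on at least 1 of the arrays. Symbols came from RefSeq, which paired 27508 of 39428 probes and 8 of the 9 members. NM_025357 was named Smpx by the rule that chose the members. The calls and the likeness were tested on simulated data.

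No replicates exist, so no test was run. The members, the gene lists and the motifs were chosen with earlier results of these data known. All 9 members are named. Of the 49 other genes, the text names the 3 largest increases and the 3 largest decreases and relatives of the members. The nearest genes were 10 to the median profile, 1 of which is not reported here, and 2 to each member. Alternatives were no scaling, quantile normalization, normexp with an offset of 50 on the median spot intensities (no mean spot signal was in the files), an offset of 50, a floor, the value table and detection on both arrays. Python 3.11.15 with numpy 2.4.6, pandas 2.3.3 and matplotlib 3.10.9, and R 4.3.3 with limma 3.58.1, were used.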

Additional observations from a re-analysis of the deposited data

Results flagged for a closer look

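Actn2 moved in opposite directions from Flk1+ MPCs to the day 5.5 populations, each by more than 2 software errors. Its log2 ratio to Flk1+ MPCs was 1.68 in PCBs and -1.82 in sfPCBs, with 1 array each. The difference was not tested between cultures, and both ratios share the Flk1+ MPC array. Over the alternatives tried, the ratio of PCBs stayed between 1.28 and 1.86 and that of sfPCBs between -1.97 and -1.38.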

How the results depend on the processing

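Over 6 alternatives, 246 log2 ratios of single genes were recomputed. None with at least a 2-fold difference reversed, 168 moved by less than the software's error and 78 by more, of which 31 came from normexp with quantile normalization, 30 from an offset of 50, 12 from no scaling and 5 from a floor at the lowest detected signal. Quantile normalization and the value table moved none by more than the error.
The counts that moved by over 1.5 times and the medians that moved by more than the software's error are given first, by comparison, and the cause was not tested. For PCBs against Flk1+ MPCs, 1 of 8 members was at least 30-fold higher with normexp and 2 with the offset, in place of 4. With detection required on both arrays this count was 2 of 5. The count at least 2-fold higher, 7 of 8, became 4 of 5 with detection on both arrays. The count at least 2-fold lower, 1, became 0 with normexp and 0 with the offset. The median log2 ratio, 4.96, was 3.38 with normexp, 3.80 with the offset and 4.46 with the floor. For sfPCBs against Flk1+ MPCs, 1 of 7 in place of 3 of 7 was at least 2-fold higher with normexp. With detection on both arrays this count was 1 of 5. At least 2-fold lower were 1 with normexp and 1 with the offset, in place of 2. The median, -0.06, was 0.28 without scaling. For PCBs against sfPCBs the median, 3.92, was 2.86 with normexp, 3.08 with the offset and 3.64 with the floor. For M+CMs against PCBs it was 4.25 without scaling, 3.94 with normexp and 4.12 with the offset, in place of 4.46. For M+CMs against Flk1+ MPCs it was 6.68, 6.91 and 7.49 with normexp, the offset and the floor, in place of 8.26. With detection on both arrays, 5 members were compared there in place of 9, and 5 were at least 30-fold and at least 2-fold higher. Smaller changes in counts were these. For PCBs against Flk1+ MPCs, 5 in place of 4 passed 30-fold without scaling and 5 with quantile normalization. For sfPCBs against Flk1+ MPCs, 2 in place of 3 passed 2-fold upward with the offset. For PCBs against sfPCBs, the 30-fold count of 3 was 2 under each alternative except the value table, and with detection on both arrays 2 of 7 passed 30-fold and 6 of 7 passed 2-fold. For M+CMs against PCBs, 8 in place of 9 passed 2-fold without scaling, 3 in place of 4 passed 30-fold with normexp, and with detection on both arrays 8 of 8 passed 2-fold and 3 of 8 passed 30-fold. For M+CMs against Flk1+ MPCs, 8 in place of 9 passed 30-fold with normexp. Taking out saturated spots, using the brightest probe or another annotation table was not run, since there were 0 saturated spots, 1 probe per member and no such table used here. Detection on both arrays was chosen after seeing the data. No array could be left out, and no paired analysis was possible because each population had 1 array.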
